A study of Mus musculus with 10 samples.

Results

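Calcium enters, is stored in and leaves a cell through a small set of proteins, and 10 of their genes are described here in muscle satellite cells (MuSCs) with and without Trpm7. They were listed by name, without a rule on measured values but with earlier results of these data known: the store sensors Stim1 and Stim2, the entry channels Orai1 and Orai3, the release channels Itpr1, Itpr2 and Itpr3, and the pumps Atp2a1, Atp2a2 and Atp2b1. All 10 are among the 24608 gene symbols of the count table, and 7 of them had enough counts to be tested. TRPM7, the protein the study deleted, is an ion channel of the plasma membrane that lets Mg2+, Ca2+ and Zn2+ into the cell, and the comparison asks which of these calcium genes differed in transcript level when it was removed from MuSCs.

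MuSCs are the stem cells of skeletal muscle, which rest beside the fiber and divide after injury. Control mice were Trpm7+/+; Pax7CreERT2/+; Rosa26YFP and Trpm7 cKO mice were Trpm7flox/flox; Pax7CreERT2/+; Rosa26YFP, so both genotypes carried the tamoxifen-inducible Cre recombinase expressed from Pax7 (a gene of MuSCs) and a YFP reporter that Cre switches on. Mice of both sexes on a C57BL6 background were adults of 7 to 20 weeks in the study, received 5 injections of tamoxifen, and were injured with cardiotoxin (CTX), a snake venom toxin that destroys muscle fibers. Activated MuSCs were isolated 3 days after injury, 3000 cells were sorted for each library, and 5 control and 5 Trpm7 cKO libraries were made from the 3′ ends of transcripts. Such a library measures the RNA of all sorted cells together, so fewer cells of a type and less RNA per cell cannot be told apart.

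Ca2+ is pumped into the endoplasmic reticulum, and in muscle into its specialized form, the sarcoplasmic reticulum, by SERCA pumps, and out of the cell by PMCA pumps. IP3 receptors open in response to signals at the cell surface and release the stored Ca2+, and STIM proteins sense the emptied store and open ORAI channels in the plasma membrane, a process called store-operated entry. In muscle this system refills the store from which contraction draws Ca2+, and it takes part in myoblast differentiation.

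The promoters of Orai1, Stim2 and Itpr2 are shown because these 3 genes passed the test and have a promoter entry in the RefSeq table used here. Each line gives the 250 bases before the gene's start in that table, read 5′ to 3′ on the gene's own strand of GRCm38.p6. They are chr5:123014824-123015073 on the plus strand for Orai1, chr5:53998273-53998522 on the plus strand for Stim2 and chr6:146502224-146502473 on the minus strand for Itpr2. The start of Stim2 in GENCODE, 53998499, lies inside its line. By that annotation the end of the Stim2 line, with the last of its GC boxes, is within the gene. Capitals mark 4 motifs, which are the E-box CAGCTG, the E-box CACCTG, or on the other strand CAGGTG, the GC box GGGCGG, or on the other strand CCGCCC, and the CCAAT box, read as CCAAT or on the other strand as ATTGG.
Orai1: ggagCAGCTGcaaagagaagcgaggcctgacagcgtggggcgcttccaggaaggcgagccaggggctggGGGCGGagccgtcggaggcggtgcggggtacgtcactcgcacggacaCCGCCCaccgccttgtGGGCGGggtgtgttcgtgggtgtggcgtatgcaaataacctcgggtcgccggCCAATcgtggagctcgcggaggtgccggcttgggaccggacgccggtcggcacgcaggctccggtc
Stim2: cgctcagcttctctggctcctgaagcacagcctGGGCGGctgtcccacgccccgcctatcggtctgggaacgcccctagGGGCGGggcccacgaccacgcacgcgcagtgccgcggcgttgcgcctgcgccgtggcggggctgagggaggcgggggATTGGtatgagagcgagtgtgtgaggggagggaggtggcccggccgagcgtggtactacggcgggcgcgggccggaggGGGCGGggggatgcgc
Itpr2: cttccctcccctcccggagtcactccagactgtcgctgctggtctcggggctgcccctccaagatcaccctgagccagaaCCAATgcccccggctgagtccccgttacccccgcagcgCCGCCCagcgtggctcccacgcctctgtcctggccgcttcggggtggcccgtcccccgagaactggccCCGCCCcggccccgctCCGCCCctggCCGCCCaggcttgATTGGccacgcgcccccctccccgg
Both strands were searched, and neighboring matches could overlap. Orai1 held the CAGCTG E-box on 1 occasion, found in 13% of the 32851 promoters of the table, and Stim2 and Itpr2 held neither E-box. The GC box was present 3 times in Orai1, 3 times in Stim2 and 4 times in Itpr2, against 32.7% of all promoters with at least 1. The CCAAT box was found once in Orai1, once in Stim2 and 2 times in Itpr2, and is in 33.8% of all promoters. Of the 8 calcium genes with an entry, 7 held a GC box, 5 a CCAAT box, 2 the CAGCTG E-box, 1 the CACCTG E-box (17.2% of all promoters) and 0 the TATA box, searched as TATAAA or on the other strand as TTTATA, which 12.4% of all promoters hold. A match of letters is a description of the sequence and no evidence of binding.

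Control libraries held 914361 to 1097709 counts and Trpm7 cKO libraries 205986 to 581121 (two-sided exact permutation test, p = 0.00794, the smallest that 5 against 5 libraries can give). Levels are therefore given as normalized CPM, counts per 1e+06 counts on tested genes scaled by TMM factors, beside the counts themselves. Of 7753 genes tested, 1866 were lower and 1908 higher in Trpm7 cKO at an adjusted p below 0.05 (quasi-likelihood test of edgeR, Benjamini-Hochberg adjusted over all tested genes), so that a gene passing the test was common. Trpm7 itself was at 76.9 ± 9.97 normalized CPM in control and 71.4 ± 22.0 in Trpm7 cKO (SD, n = 5 each), with 66 to 84 and 10 to 55 counts, a log2 fold change of -0.09 (adjusted p = 0.723 by edgeR's quasi-likelihood test). Which exons were deleted is not given in the sources used here, so whether 3′-end reads could show the deletion is not known and this level does not check the labels. The study itself reported the Trpm7 deletion by genetic analysis. By immunofluorescence of TRPM7 it also reported that the deficiency was effective in MuSCs on freshly isolated fibers. Nothing in the labels says that the libraries came from separate animals, and the names of Trpm7 cKO replicates 4 and 5 share a number whose meaning is not stated, so the p-values measure the spread between these libraries.

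Of the 7 calcium genes tested, 3 were lower (Atp2a2, Orai1 and Stim2) and 1 was higher (Itpr2) in Trpm7 cKO, while Stim1, Itpr1 and Atp2b1 did not pass the test. Among all tested genes, 24.1% were called lower and 24.6% higher by the same rule, 48.7% in either direction. With a log2 fold change beyond 1.5 as well, Itpr2 alone passed among the 7, where 12% of all tested genes did, 3.53% lower and 8.49% higher. The same 4 genes were those whose 5 control and 5 Trpm7 cKO libraries did not overlap, which held for 34.5% of all tested genes. The direction was thus not shared by the set, and 4 of 7 is near the background.

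**Figure D1:**
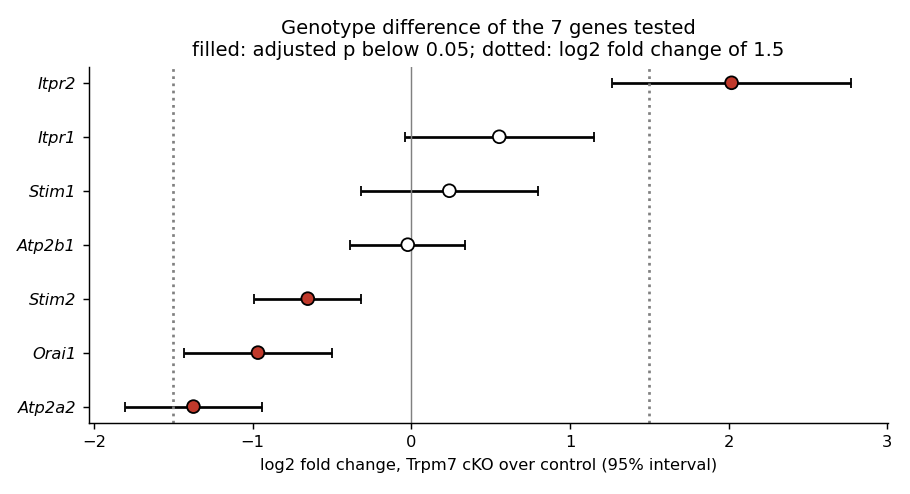
Log2 fold change of Trpm7 cKO over control for the 7 calcium genes tested, with 95% intervals as bars, filled points for an adjusted p below 0.05 and dotted lines at a log2 fold change of 1.5 either way. Atp2a2 (-1.37), Orai1 (-0.97) and Stim2 (-0.65) lie below 0 with their whole interval, Itpr2 (2.02) lies above it, and the intervals of Atp2b1, Stim1 and Itpr1 include 0.

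The levels of the 10 genes spanned a wide range. Since 1 count stands for 1 molecule tagged at its 3′ end, whatever the transcript's length, levels of different genes are compared without a length correction, although tagging may differ in efficiency between transcripts. In control MuSCs the order by mean normalized CPM was Atp2b1 (415 ± 70.2), Atp2a2 (407 ± 72.5), Stim2 (105 ± 10.9), Orai1 (67.9 ± 16.7), Stim1 (25.5 ± 2.96), Itpr1 (21.7 ± 3.66), Itpr2 (14.3 ± 8.14), Itpr3 (6.52 ± 2.48), Atp2a1 (5.40 ± 2.08) and Orai3 (4.92 ± 3.44; SD, n = 5 each). The first 2 lay closer to each other than the sum of their SDs, as did Stim1 and Itpr1, Itpr1 and Itpr2, Itpr2 and Itpr3, and the last 3 genes. Stim2 and Orai1 were separated from their neighbors by more than the sum of their SDs. In Trpm7 cKO the means of Atp2b1 (411 ± 109) and Atp2a2 (150.2 ± 59.2) were separated by more than the sum of their SDs, and the mean of Itpr2 (65.4 ± 33.6) was next to that of Stim2 (66.4 ± 11.1), closer than the sum of their SDs.

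**Figure D2:**
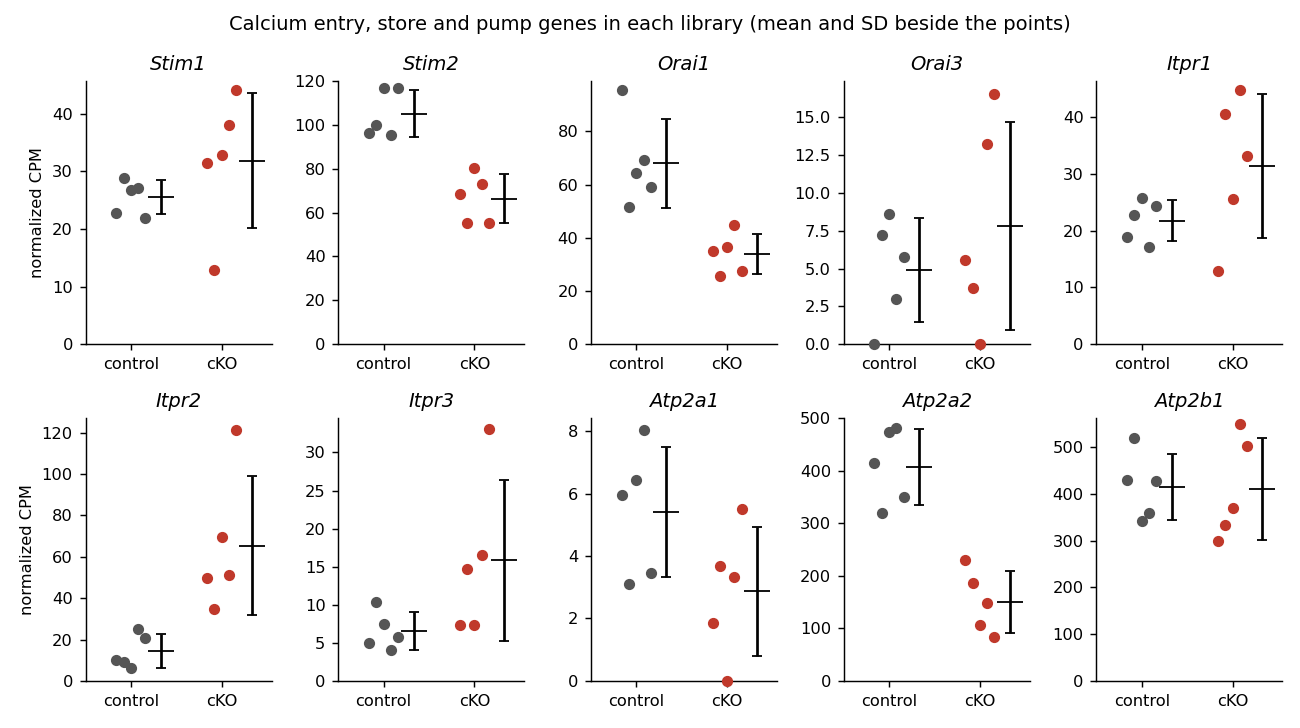
Normalized CPM (y axis, from 0) of the 10 calcium genes in each control and Trpm7 cKO library, with the mean and SD of the 5 libraries beside the points. The libraries of the 2 genotypes do not overlap for Stim2, Orai1, Atp2a2 (all lower in Trpm7 cKO) and Itpr2 (higher), and overlap for the other 6 genes.

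Store-operated entry begins with the STIM proteins, which span the membrane of the endoplasmic reticulum and sense its Ca2+. Stim2 (chr5:53998499-54121057, plus strand, GRCm38) had 97, 97, 109, 95 and 101 counts in control libraries 1 to 5 and 37, 30, 22, 44 and 10 in Trpm7 cKO libraries 1 to 5. In normalized CPM these were 96.5, 100.2, 117, 95.4 and 117 in control and 68.4, 55.2, 80.4, 72.9 and 55.2 in Trpm7 cKO. Every control library was thus above every Trpm7 cKO library, and the control libraries lay close together. The log2 fold change was -0.65 (SE 0.16, 95% interval -0.99 to -0.32), a level 1.57 times higher in control (adjusted p = 0.00235, edgeR's quasi-likelihood test).

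Stim1 (chr7:102267806-102437319, plus strand) encodes the sensor that responds most strongly when the store empties, and was the rarer of the 2 STIM transcripts in every library. Its levels were 22.9, 28.9, 26.8, 27.1 and 22.0 normalized CPM in control and 31.4, 12.9, 32.9, 38.1 and 44.1 in Trpm7 cKO. The lowest library was Trpm7 cKO 2, the other 4 of its group were above all control libraries, and the groups overlapped. The log2 fold change was 0.24 (SE 0.27, 95% interval -0.32 to 0.80; adjusted p = 0.485 by edgeR's quasi-likelihood test), an interval with values on both sides of 0.

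Orai1 (chr5:123015074-123030456, plus strand) encodes the pore of the store-operated channel that STIM opens. Its counts were 96, 50, 60, 69 and 51 in control and 19, 14, 10, 27 and 5 in Trpm7 cKO, that is 95.5, 51.6, 64.3, 69.3 and 59.0 against 35.1, 25.8, 36.5, 44.7 and 27.6 normalized CPM. Control 1 stood highest and the groups did not overlap, the nearest libraries being control 2 and Trpm7 cKO 4. Orai1 was 1.96 times higher in control, with a log2 fold change of -0.97 (SE 0.22, 95% interval -1.43 to -0.50; adjusted p = 0.00129 by edgeR's quasi-likelihood test). The smallest of these counts rest on few molecules.

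Orai3 (chr7:127769815-127775150, plus strand), a relative of Orai1 that forms channels of its own and with Orai1, had too few counts to be tested. It had 0, 7, 8, 3 and 5 counts in control and 3, 2, 0, 8 and 3 in Trpm7 cKO, so that both groups held libraries at 0 and near 10. Moreover, 13.2% of the last 500 bases of its transcript also occur, in either orientation, in transcripts of Atrx, Gm16251 and Naa16. How many of its counts this could affect is not known. No difference in Orai3 was detectable at this depth.

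IP3 receptors, the release channels of the store, are encoded by 3 genes that differ in how sensitive the channel is to IP3 and Ca2+. Itpr2 (chr6:146108299-146502223, minus strand), the receptor with the highest affinity for IP3, had 10, 9, 6, 25 and 18 counts in control and 27, 19, 19, 31 and 22 in Trpm7 cKO. Because the Trpm7 cKO libraries were smaller, these correspond to 9.94, 9.29, 6.43, 25.1 and 20.8 normalized CPM in control and 49.9, 35.0, 69.4, 51.4 and 121 in Trpm7 cKO. The highest control library, control 4, was below the lowest Trpm7 cKO library, replicate 2, and Trpm7 cKO 5, the smallest library, stood far above the others. Itpr2 was 4.05 times higher in Trpm7 cKO, with a log2 fold change of 2.02 (SE 0.36, 95% interval 1.26 to 2.77; adjusted p = 1.55e-04 by edgeR's quasi-likelihood test). Only 2 of its control libraries were above the level the low count filter asks for, against all 5 of Trpm7 cKO, so it was tested because of the group in which it was high. Without the 2 smallest Trpm7 cKO libraries, replicates 3 and 5, its log2 fold change was 1.67 (adjusted p = 8.50e-04 by the same test), an alternative chosen after seeing the data.

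Itpr1 (chr6:108213096-108551109, plus strand), the receptor known best from neurons and smooth muscle, was at 18.9, 22.7, 25.7, 17.1 and 24.3 normalized CPM in control and 12.9, 40.5, 25.6, 44.7 and 33.1 in Trpm7 cKO. Trpm7 cKO 1 was below all control libraries, Trpm7 cKO 3 was level with the highest of them and the other 3 were above. The log2 fold change was 0.55 (SE 0.29, 95% interval -0.04 to 1.15) and did not pass the test (adjusted p = 0.116, edgeR's quasi-likelihood test). Without Trpm7 cKO replicate 1 it was 0.78 and passed (adjusted p = 0.0156, same test), so that 1 library decides this call.

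Itpr3 (chr17:27057304-27122223, plus strand), the receptor common in epithelial cells, was below the filter with 5, 10, 7, 4 and 5 counts in control and 4, 8, 2, 10 and 6 in Trpm7 cKO. The corresponding 4.97, 10.3, 7.51, 4.02 and 5.79 normalized CPM in control overlapped the 7.39, 14.7, 7.31, 16.6 and 33.1 in Trpm7 cKO. Summed over the 3 receptors, the level was 33.8 to 50.9 normalized CPM in control and 70.2 to 188 in Trpm7 cKO, without overlap, although the summed counts themselves, 34 to 46 and 28 to 68, overlapped. This sum was formed after the single genes were seen and was not tested.

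Atp2a2 (chr5:122453513-122502225, minus strand), SERCA2, fills the store in slow muscle, heart and most other cells. It had 416, 309, 442, 479 and 302 counts in control and 124, 101, 29, 89 and 15 in Trpm7 cKO. The corresponding levels were 414, 319, 474, 481 and 349.6 normalized CPM in control and 229, 186, 106, 147 and 82.8 in Trpm7 cKO. All Trpm7 cKO libraries lay below all control libraries, the 2 smallest, replicates 3 and 5, being the lowest. Atp2a2 was 2.59 times higher in control, with a log2 fold change of -1.37 (SE 0.21, 95% interval -1.80 to -0.94; adjusted p = 2.05e-05 by edgeR's quasi-likelihood test), the smallest adjusted p of the 7. Without those 2 libraries the log2 fold change was -1.12 (adjusted p = 6.38e-05, same test).

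Atp2b1 (chr10:98914406-99026143, plus strand), PMCA1, the pump that most cells use to expel Ca2+ through the plasma membrane, did not pass the test. Its levels were 429, 518, 341, 358 and 428 normalized CPM in control and 299, 333, 369, 550.1 and 502 in Trpm7 cKO, and the Trpm7 cKO libraries spread to both sides of the control libraries. The log2 fold change was -0.02 (SE 0.17, 95% interval -0.38 to 0.34; adjusted p = 0.930 by edgeR's quasi-likelihood test). Atp2a2 made up 49.1%, 38.1%, 58.2%, 57.3% and 44.9% of the Atp2a2 and Atp2b1 counts together in control, and 43.4%, 35.8%, 22.3%, 21.1% and 14.2% in Trpm7 cKO. The means were 49.5% ± 8.46 and 27.4% ± 11.9 (SD, n = 5 each), with Trpm7 cKO 1 inside the control range. This share does not depend on how libraries are scaled, and as it was chosen after the values were seen it is given with no test.

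Atp2a1 (chr7:126445858-126463108, minus strand), SERCA1, the pump of fast muscle fibers, had 6, 3, 6, 8 and 3 counts in control and 1, 2, 0, 2 and 1 in Trpm7 cKO. These are at or under 3 counts in every Trpm7 cKO library, and no fold is given. Its 3′ end overlaps Rabep2 on the opposite strand, whose transcript shares 54.4% of its last 500 bases, and whether counting used the strand is not given in the sources used here.

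Within each family, taken as its genes among the 10, the share of counts of each gene was compared between genotypes. A share within a library does not depend on scaling. Across 6 such shares, none passed an adjusted p below 0.05 (two-sided exact permutation tests, Benjamini-Hochberg over the 6). Stim1 took 19.6% ± 2.72 of the STIM counts in control and 31.6% ± 9.22 in Trpm7 cKO, higher by 12.0 percentage points (exact permutation p = 0.0317, adjusted 0.0794). Its share was 15.8% to 22.4% in control and 31.5%, 18.9%, 29.0%, 34.3% and 44.4% in Trpm7 cKO, where replicate 2 fell within the control range. The last of these rests on 8 of 18 counts (95% Wilson interval 24.6% to 66.3%), an interval that, like the others, covers counting error only.

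Among the IP3 receptors, Itpr1 took 51.8% ± 10.3 of the counts in control and 29.1% ± 12.5 in Trpm7 cKO, a difference of -22.7 percentage points (exact permutation p = 0.0238, adjusted 0.0794). Itpr2 took 32.6% ± 15.3 and 57.6% ± 14.5, a difference of 25.0 points (exact permutation p = 0.0397, adjusted 0.0794). The most abundant receptor gene was Itpr1 in 4 of 5 control libraries and Itpr2 in 4 of 5 Trpm7 cKO libraries, when counts were compared directly. The groups overlapped in the Itpr2 share. Control 4, with 54.3% (25 of 46 counts, 95% Wilson interval 40.2% to 67.8%), was above Trpm7 cKO 4, with 45.6% (31 of 68 counts, 34.3% to 57.3%). Both control 4 and control 5 (40.9%) were above Trpm7 cKO 2 (38.8%). Itpr3 took 15.6% ± 6.22 and 13.3% ± 4.35 (exact permutation p = 0.524, adjusted 0.540).

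Orai1 took 92.6% ± 5.25 of the Orai1 and Orai3 counts in control and 82.7% ± 13.9 in Trpm7 cKO (difference -9.87 points, exact permutation p = 0.159, adjusted 0.238). Both genotypes had 1 library with 100% (96 of 96 counts in control 1 and 10 of 10 in Trpm7 cKO 3). Orai2, not one of the listed genes, was left out, so this is not a share of all ORAI counts. Orai2 was at 13.7 ± 4.36 normalized CPM in control and 28.4 ± 14.5 in Trpm7 cKO, above Orai3 (4.92 ± 3.44 and 7.81 ± 6.88). The Trpm7 cKO mean of Orai1 was 33.9 ± 7.61 (SD, n = 5 each). A share with Orai2 included was not tested. Atp2a1 took 1.27% ± 0.293 of the SERCA counts in control and 2.24% ± 2.41 in Trpm7 cKO (exact permutation p = 0.540, adjusted 0.540). Atp2a2 was therefore nearly the whole of the SERCA counts in both genotypes.

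**Figure D3:**
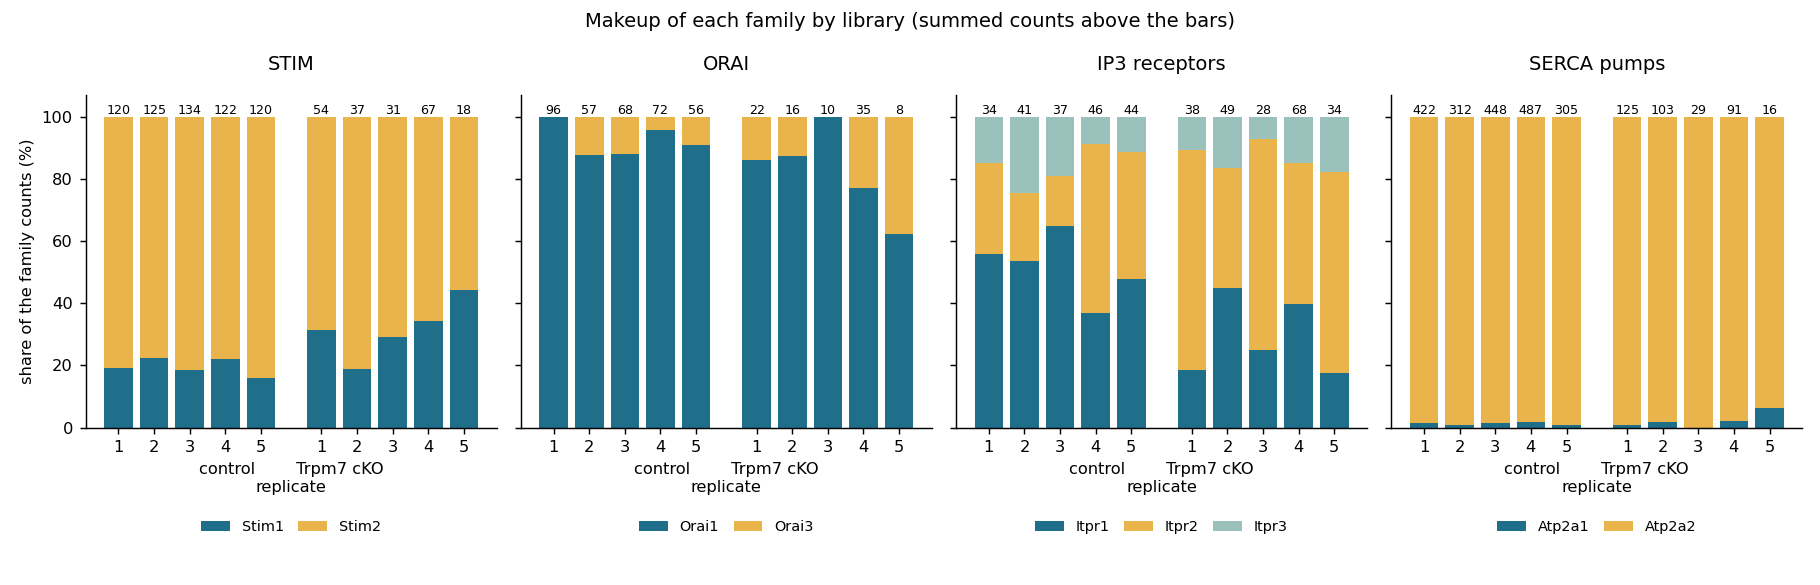
Share of the family's counts (y axis, percent) taken by each gene in each library, for the listed STIM, ORAI, IP3 receptor and SERCA genes. Orai2 is left out of the ORAI counts, and the summed counts are above the bars. The mean Itpr1 share is 51.8% in control and 29.1% in Trpm7 cKO and the mean Stim1 share 19.6% and 31.6%, with libraries of the 2 genotypes overlapping in each family.

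Around these 10 genes, 84 further calcium handling genes of the table were examined in 6 groups, and 50 of them had enough counts to be tested. Of the 50, 10 were lower and 11 higher in Trpm7 cKO at an adjusted p below 0.05, with a median log2 fold change of 0.11 against -0.01 over all tested genes. These were 20% and 22% of the 50, beside 24.1% and 24.6% of all tested genes. At the stricter rule 1 of the 50 was lower and 4 were higher, where 3.53% of all tested genes were lower and 8.49% higher.

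Of the entry partners, 3 of 13 were tested and 1 was higher, 0 lower (median log2 fold change 0.47). Orai2, the remaining ORAI channel, which can lower the current that Orai1 carries, was at 17.9, 12.4, 8.58, 11.0 and 18.5 normalized CPM in control and 33.3, 33.1, 25.6, 44.7 and 5.52 in Trpm7 cKO. Replicates 1 to 4 of Trpm7 cKO were above all control libraries and replicate 5, with 1 count, was below them. The log2 fold change of Orai2 was 1.22 (SE 0.32, adjusted p = 0.00324, edgeR's quasi-likelihood test). Orai2 was above the level the filter asks for in 2 control and 4 Trpm7 cKO libraries. The most abundant of the group, Saraf, which switches store-operated entry off, had a log2 fold change of 0.31 (adjusted p = 0.190, same test).

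Of the release partners, which hold or regulate the ryanodine receptor and the IP3 receptors, 11 of 20 were tested, 5 were lower and 0 higher (median -0.40). Cacng1, a subunit of the muscle voltage-gated calcium channel, was at 71.1 ± 10.4 normalized CPM in control and 18.2 ± 6.89 in Trpm7 cKO, without overlap (log2 fold change -1.90, adjusted p = 2.57e-06, edgeR's quasi-likelihood test). Fkbp1a, which binds the ryanodine receptor as well as other proteins and was the most abundant of the group, was at 1294 ± 279 and 514 ± 91.8 (log2 fold change -1.32, adjusted p = 2.80e-06). Ryr1, the release channel of skeletal muscle, fell by 1.05 on the log2 scale (adjusted p = 0.0408), from 22.5 ± 8.86 to 9.83 ± 6.30 normalized CPM, on 1 to 11 counts per Trpm7 cKO library. Ryr1 was above the level the filter asks for in 4 control libraries and 1 Trpm7 cKO library, and Cacng1 in 5 and 3.

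Of the other pumps and exchangers, 6 of 14 were tested, 2 were lower and 2 higher (median -0.01). Slc8b1, the exchanger that carries Ca2+ out of mitochondria, was at 9.98 ± 4.10 normalized CPM in control and 35.9 ± 12.0 in Trpm7 cKO, without overlap (log2 fold change 1.71, adjusted p = 1.72e-04, edgeR's quasi-likelihood test). Only 2 of its control libraries were above the level the filter asks for, against all 5 of Trpm7 cKO. Bsg, a partner protein of the PMCA pumps and of lactate transporters, was the most abundant (log2 fold change -0.74, adjusted p = 0.00275). Atp2b4, PMCA4, was at 145 ± 15.2 and 145 ± 42.4 normalized CPM (log2 fold change 0.01, adjusted p = 0.961). Atp2a3, SERCA3, had 0 to 2 counts in the libraries of both genotypes, and Slc8a1, an exchanger of the plasma membrane, had 0 to 4 in control and 0 to 9 in Trpm7 cKO.

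Among genes listed for luminal or membrane-bound proteins of the endoplasmic reticulum, 9 of 12 were tested, 2 were higher and 0 lower (median 0.13). Rcn3, a Ca2+-binding protein of the secretory pathway, was at 13.0 ± 5.14 and 49.4 ± 16.3 normalized CPM (log2 fold change 2.00, adjusted p = 9.75e-06, edgeR's quasi-likelihood test), and it too was above the filter level in 2 control and 5 Trpm7 cKO libraries. Canx, a chaperone and the most abundant of them, had a log2 fold change of -0.11 (adjusted p = 0.503). Of the genes for mitochondrial uptake, 8 of 9 were tested, 2 were lower and 1 higher (median 0.24). The most abundant was Vdac1, the channel of the outer membrane, at 281 ± 26.0 and 173 ± 35.1 normalized CPM (log2 fold change -0.69, adjusted p = 8.63e-04).

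Calmodulin, calcineurin and NFAT genes, which carry the Ca2+ signal to the nucleus, had 13 of 16 tested, 1 lower and 5 higher (median 0.15). Rcan2, an inhibitor of calcineurin, was at 4.78 ± 2.83 normalized CPM in control and 23.2 ± 10.6 in Trpm7 cKO (log2 fold change 2.03, adjusted p = 4.74e-04, edgeR's quasi-likelihood test). Nfatc2, a transcription factor that calcineurin activates, was at 17.5 ± 5.21 and 58.1 ± 21.5 (log2 fold change 1.60, adjusted p = 8.78e-05). Rcan2 was above the filter level in 0 control libraries and Nfatc2 in 3, against 5 of Trpm7 cKO for both, so they were tested because of the group in which they were high.

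**Figure D4:**
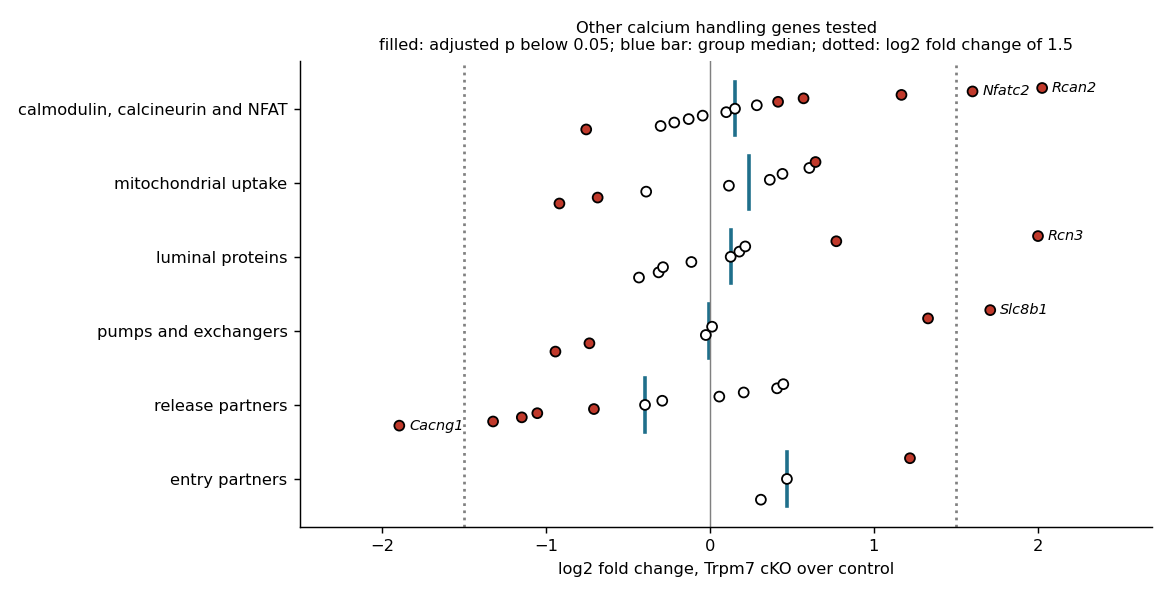
Log2 fold change of Trpm7 cKO over control for the 50 other calcium handling genes tested, in 6 groups, with filled points for an adjusted p below 0.05 and a bar at each group's median. Cacng1 (-1.90) is lower, and Slc8b1 (1.71), Rcn3 (2.00), Nfatc2 (1.60) and Rcan2 (2.03) are higher, beyond the dotted lines at 1.5.

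Markers of other cell types and of differentiation moved with genotype as well. Leukocyte markers, 25 in the table, had a summed level of 410 to 660 normalized CPM in control and 1443 to 6384 in Trpm7 cKO, led by Lyz2, Ctss and C1qb (log2 fold changes 3.20, 2.42 and 2.78). The 17 that were tested were all higher, a count that the filter partly sets, since 11 of them were above its level in fewer than 5 control libraries and in all 5 of Trpm7 cKO. Of those 25, Cd3e, Cd79a and Nkg7, which mark T cells, B cells and cytotoxic lymphocytes, had 0 counts in every control library and at most 1, 1 and 2 in any Trpm7 cKO library, so that these cells' defining markers were at or near 0 in both genotypes. The 12 endothelial markers summed to 25.7 to 96.1 normalized CPM in control and 179 to 1054 in Trpm7 cKO, led by Ly6a, Cdh5 and Pecam1 (2.21, 4.02 and 3.46). The 4 that were tested were all higher, and 3 of them were tested because of the Trpm7 cKO libraries in the same way. Of 8 tested fibroadipogenic markers of 11, 7 were higher (2 of the 8 tested because of the Trpm7 cKO libraries), with all 11 summing to 1466 to 2675 in control and 3033 to 5495 in Trpm7 cKO, the most abundant being Col3a1 (0.30, not passing), Gsn (1.11) and Col1a1 (2.22).

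Differentiating muscle markers summed to 1920 to 2616 normalized CPM in control and 427 to 764 in Trpm7 cKO. Of 11 tested among 18, 9 were lower and 1 higher, Ttn, Myog and Tnnt2 being the most abundant, with means of 917, 507 and 219 normalized CPM in control and 89.9, 128 and 36.5 in Trpm7 cKO. The filter partly sets these counts too. The higher gene was above the filter level in 0 control and 5 Trpm7 cKO libraries. Some of the lower genes were above it in 5 control but only 4, 3 or 2 Trpm7 cKO libraries. Myh8 had 0 counts in every Trpm7 cKO library and 0 to 2 in control, at the floor in both. MuSC identity markers were present in all libraries, at 2575 to 3069 in control and 2666 to 4348 in Trpm7 cKO, and of 11 tested among 12, 6 were higher and 1 lower, the most abundant being Des (0.08), Vcam1 (0.21) and Sdc4 (0.46, passing). The sums of leukocyte, endothelial, fibroadipogenic and differentiating muscle markers did not overlap between genotypes. Stim2, Orai1, Itpr2 and Atp2a2 did not either, which held for 34.5% of all tested genes.

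**Figure D5:**
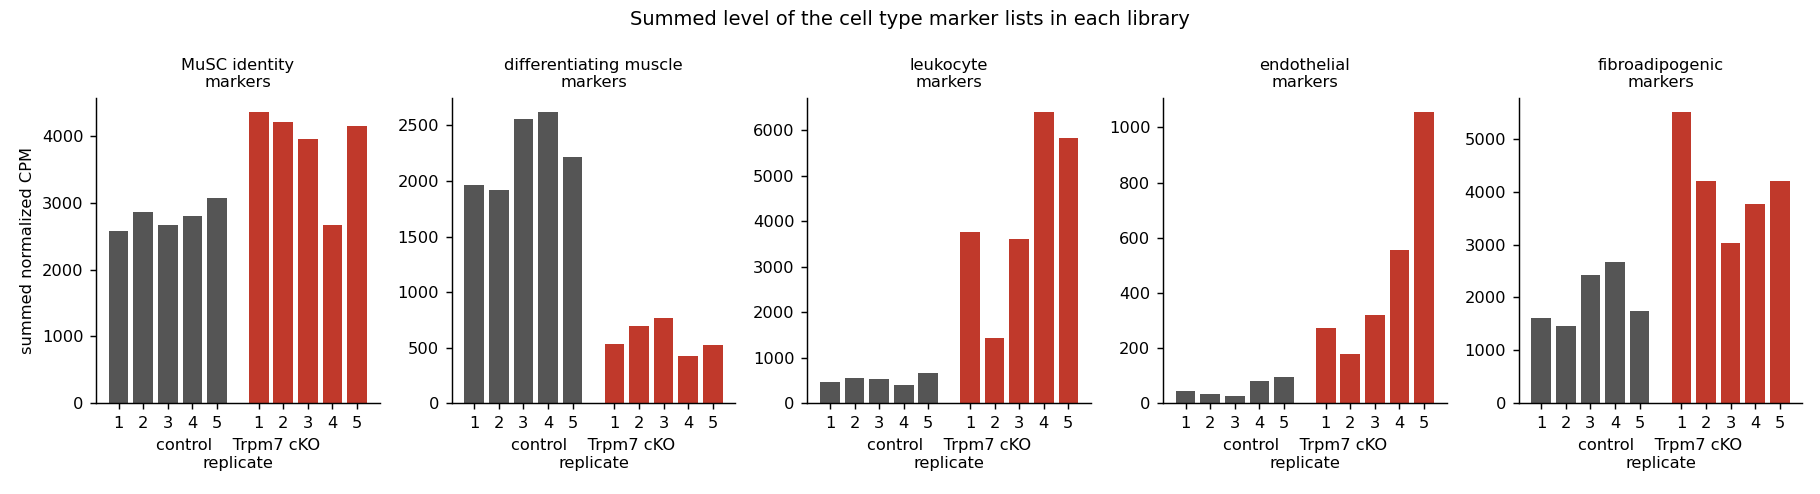
Summed normalized CPM (y axis, from 0, scaled per panel) of 5 marker lists in each library. Leukocyte (1443 to 6384 against 410 to 660 in control), endothelial and fibroadipogenic sums are higher and differentiating muscle sums lower in every Trpm7 cKO library, while MuSC identity sums overlap.

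The study isolated YFP-positive MuSCs, and its sort of uninjured muscle stained for Sca-1 (the product of Ly6a), the leukocyte antigen Ptprc and Pecam1 beside the MuSC antigen Vcam1. The part of other cell types in the results for Atp2a2, Orai1, Stim2 and Itpr2 was not tested. With a leukocyte marker score as a further term of the fit, none of the 4 passed, with log2 fold changes of -0.39 for Atp2a2 (adjusted p = 0.737), -1.27 for Orai1 (adjusted p = 0.296), -1.13 for Stim2 (adjusted p = 0.164) and 0.84 for Itpr2 (adjusted p = 0.652; edgeR's quasi-likelihood test). In that fit 129 of the 7753 genes were lower and 389 higher. The score and the genotype separate the libraries in the same way, so the 2 terms cannot be told apart here. In another fit every library was thinned to the total of the smallest by a single random draw, which left 3933 genes tested. Atp2a2 passed (log2 fold change -1.37, adjusted p = 0.00103 by edgeR's quasi-likelihood test), Stim2 (-0.69, adjusted p = 0.186) and Itpr2 (1.80, adjusted p = 0.0584) did not, and Orai1 was below the filter. The part of depth in the calls was not tested.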

How the data were processed

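MuSC RNA was measured by 3′-end RNA-seq (CEL-Seq2) in 5 control and 5 Trpm7 cKO libraries. Before deposition, the authors took barcodes and unique molecular identifiers (UMIs) from the reads with UMI-tools 1.1.4, trimmed with Trim Galore 0.6.10, mapped to GRCm38 with HISAT2 2.2.1, counted per gene with featureCounts 2.0.6 and removed UMI duplicates, so the deposited values are raw counts of molecules per gene. The annotation release and strand setting are not given in the sources used here.

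The 24620 entries carry 24608 symbols, and for the 12 repeated symbols the entry with the larger total was used. Genes were kept by filterByExpr (minimum count 10, minimum total 15), leaving 7753, and tested with TMM scaling and the robust quasi-likelihood F test of edgeR 4.0.16 (R 4.3.3), Benjamini-Hochberg adjusted over all 7753. A gene was called at an adjusted p below 0.05, and a stricter rule also asked for a log2 fold change beyond 1.5. SEs and intervals are those of this fit. The fit was tested on simulated data. Shares used exact permutation tests. No 2 libraries of the same genotype agreed within sampling noise, and depth, 205986 to 1097709 counts, limits the rarer genes. Floors were set at 3 counts.

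The text names the 10 genes, Trpm7, Orai2, Atp2a3, Atp2b4, Ryr1 and Slc8a1, in each group of other calcium genes those past both thresholds and the most abundant, and the 3 most abundant genes of each marker list. 1 gene that this rule names is not reported here. Markers at 0 in all libraries of a genotype were named after their values were seen. The genes and lists were chosen with earlier results of these data known. Positions came from GENCODE M21 and promoters from the RefSeq table of GRCm38.p6. Alternatives were DESeq2 1.42.0, limma-voom (limma 3.58.1), other scalings and filters, thinning of counts, the replicate number as a block, a leukocyte score, a sum of Trpm7 cKO replicates 4 and 5, and each library left out.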

Additional observations from a re-analysis of the deposited data

Results flagged for a closer look

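Of 48 groups of 5 values checked, 1 held a library far from the others. The groups included the calcium genes, their family shares and the marker sums in each genotype. The summed MuSC identity markers were at 2666 normalized CPM in Trpm7 cKO replicate 4, against 3957 to 4348 in the other 4 Trpm7 cKO libraries, a gap of 0.768 of the group's range, above Dixon's 95% critical value for 5 values. Chance gives such a gap in about 1 in 20 groups. The same library had the highest leukocyte sum, 6384, and the lowest sum of differentiating muscle markers, 427. Without it, the calls of the 10 calcium genes were the same 4 as with it.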

How the results depend on the processing

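Atp2a2, Orai1 and Stim2 lower and Itpr2 higher, with no other calcium gene called, held with DESeq2, with limma-voom, with RLE factors, unscaled totals or MuSC identity markers as the scale, with no low count filter, summed Trpm7 cKO replicates 4 and 5, without the 2 smallest Trpm7 cKO libraries (chosen after seeing the data) and without each library in turn, except that Itpr1 was also higher without Trpm7 cKO replicate 1. Leaving out 1 library gave 1 to 2 genes higher and 1 to 2 past both thresholds (2 without Trpm7 cKO replicate 1, where Atp2a2 joined Itpr2). Scaling on MuSC identity markers and no filter also put 2 past both thresholds, Atp2a2 and Itpr2. A minimum count of 30 removed Itpr2, leaving 0 higher and 0 past both. Thinned to the smallest library, 1 gene was lower (Atp2a2), 0 higher and 0 past both, with Stim2 at -0.69 (adjusted p = 0.186 by edgeR), Itpr2 at 1.80 (adjusted p = 0.0584) and Orai1 below the filter, and 448 genes were lower and 524 higher of 3933 tested. With the leukocyte score, 0 were lower, 0 higher and 0 past both, and Stim1 was at -1.62. The cause of these losses was not tested. Scaling on MuSC identity markers moved the median of all genes to -0.43, with 3034 lower and 1024 higher, and Stim1 to -0.15, which is above that median. No filter moved the median to 0.17 and DESeq2, which tested 13831 genes, to 0.63. Atp2b1, called in no setting, was at 0.054 with unscaled totals, 0.083 at a minimum count of 30, 0.24 when thinned and -0.20 to 0.074 with 1 library left out. With no filter, Orai3, Itpr3 and Atp2a1 did not pass (adjusted p = 0.589, 0.126 and 0.259 by edgeR).

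The replicate block, the number in the labels as a term of the fit, kept the same 4 calls (Atp2a2 -1.44, Orai1 -0.99, Stim2 -0.64, Itpr2 2.12). The deviations of same-numbered libraries from their group means had correlations of -0.12 to 0.18, the highest for number 5. What the number stands for is not stated, and so few pairs cannot show whether these libraries share more than a number. For the shares, paired by number, the differences of 12.0 (Stim1), -22.7 (Itpr1) and 25.0 points (Itpr2) had an exact permutation p of 0.125, where 0.0625 is the smallest possible. Unadjusted share differences thinned to the smallest library were -12.7 for Itpr1 (exact permutation p = 0.508), 29.1 for Itpr2 (0.0714), 19.0 for Stim1 (0.0238), -5.07 for Orai1 (0.651), -16.4 for Itpr3 (0.278) and 2.77 for Atp2a1 (0.167). Without the 2 smallest Trpm7 cKO libraries they were -8.90 for Orai1 (exact permutation p = 0.0357), 8.61 for Stim1 (0.0714), -17.5 for Itpr1 (0.0714) and 19.2 for Itpr2 (0.143). With 1 library left out they ranged from -14.2 (without Trpm7 cKO replicate 3, exact permutation p = 0.00794) to -4.82 for Orai1, 8.80 to 15.2 for Stim1, 20.9 to 30.5 for Itpr2, -26.6 to -19.4 for Itpr1, -4.07 to -0.15 for Itpr3 and -0.035 to 1.53 for Atp2a1.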
